A study of Homo sapiens with 17 samples.

Results

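The levels of 10 genes of the Notch pathway were followed across 17 RNA-seq libraries of human squamous cancer cell lines. The genes were the receptors NOTCH1, NOTCH2 and NOTCH3, the ligands JAG1, JAG2 and DLL1, the glycosyltransferase LFNG, and the target genes HES1, HEY1 and NRARP. They were chosen by name among the 57820 genes listed for every library, with earlier results of these data known. The shares and medians over all genes given below are therefore descriptions and not a test of the 10 genes as a set. A further entry that carried the JAG1 symbol was above 0 in 3 of the 17 libraries, reached at most 2.38 counts and was not used.

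KYSE140, an esophageal squamous cancer line, gave 13 of the libraries. In CRISPR interference (CRISPRi), KYSE140 cells carried an inactive Cas9 fused to repressor domains that include KRAB, with guides to e1, an enhancer near SOX2 (e1 guides 1 and 2), or with negative-control guides that match no genomic site (NC guides 1 and 2). In the knockout experiment, KYSE140 cells carried active Cas9 with guides to the coding region of SOX2 (guides 2, 3 and 4) or with control guides aimed at AAVS1 or at a site on chromosome 2 (Chr2.2). In the drug experiment, KYSE140 cells received 0.5 µM ARV-771, a degrader of BET bromodomain proteins, or DMSO, for 6 h each. The libraries of either treatment are labelled A and B. SKMES1, a lung squamous cancer line, carried an inactive Cas9 fused to the activator VP64 (CRISPRa) with e1 guides 1 and 3 or with NC guides 1 and 2. The CRISPR cultures were drug-selected populations of virus-infected cells and not single clones, and the control cultures carried the same Cas9 construct as the cultures they were compared with. SOX2 encodes a transcription factor of the squamous lineage, and the comparisons ask how Notch genes stand when its enhancer, its coding sequence or bromodomain proteins are lost, or when the enhancer is activated.

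Notch receptors are cell-surface proteins that are cut when a ligand on a neighbouring cell binds them. ADAM proteases and then gamma-secretase release the intracellular domain, which joins the DNA-binding protein RBPJ and coactivators of the Mastermind family in the nucleus and switches on target genes. HES1 and HEY1 encode repressors of transcription of the HES and HEY families, and NRARP encodes an ankyrin-repeat protein that limits the signal. LFNG encodes Lunatic fringe, which adds sugars to the receptor and shifts its preference between Delta and Jagged ligands. In stratified squamous epithelium, Notch signalling is known for promoting the exit of basal cells into differentiation, and NOTCH1 is often mutated in squamous cancers. RNA levels do not measure receptor cleavage, so the values below describe the genes and not the activity of the pathway.

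Total expected counts (the read counts that RSEM estimates per gene) ranged from 7260730 to 15781463 per library, at which 3 counts correspond to between 0.1901 and 0.4132 CPM (counts scaled to the library total). Replicates were not alike within counting noise in any group. Their chi-square statistics, divided by the degrees of freedom, ran from 2.16 to 26.63 and were highest between the SKMES1 control libraries. SOX2 guide 4 also stood apart from guides 2 and 3 (12.45 and 6.36, against 2.77 between those guides). All 6 squamous markers were present in KYSE140, where KRT5 was never below 2398.33 TPM (a transcript level scaled to gene length and to a fixed total in each library). In SKMES1, KRT5 lay between 0.05 and 1.26 TPM, DSG3 at 0.1 TPM or less, TP63 between 1.87 and 3.79 TPM and KRT6A between 0.32 and 19.23 TPM, each below every KYSE140 library. KRT14, at 0.0 to 118.44 TPM in SKMES1 and 62.35 to 2644.29 TPM in KYSE140, and PKP1, at 71.98 to 140.63 and 114.05 to 324.92 TPM, overlapped between the lines. VIM, a mesenchymal marker, was 1178.49 to 2268.19 TPM in SKMES1 and 93.65 to 1280.34 TPM in KYSE140, ranges that overlapped. ZEB1, another mesenchymal marker, was 8.28 to 13.51 TPM in SKMES1 and 0.0 to 1.12 TPM in KYSE140. COL1A2, on the same marker list, was 0.0 TPM in SKMES1 and at most 0.21 TPM in KYSE140. KRT8, a marker of simple epithelium, was 375.19 to 684.8 TPM in SKMES1 and 400.88 to 1278.4 TPM in KYSE140. KRT18, another, was 253.49 to 459.91 TPM in SKMES1 and 177.91 to 566.38 TPM in KYSE140. KRT5 and DSG3, markers of stratified squamous epithelium, were thus at or near 0 in the line labelled as lung squamous. KRT14 and PKP1 were present in at least some of its libraries, and KRT8 and KRT18 in all of them. Of the markers of immune and endothelial cells, PTPRC was at most 0.55 TPM, and CD3E and CDH5 at most 0.16 TPM, in every library.

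SOX2 RNA followed the labels. It measured 379.21 and 364.7 TPM with the CRISPRi control guides and 119.61 and 127.56 TPM with e1 guides. With the knockout controls it was 396.65 and 427.69 TPM, against 102.53, 125.04 and 220.69 TPM with SOX2 guides 2, 3 and 4. ARV-771 took it from 236.02 and 223.21 TPM to 9.8 and 10.54 TPM, and e1 activation in SKMES1 from 1.68 and 1.53 TPM to 223.8 and 315.75 TPM. In each experiment the groups did not overlap. A guide in the coding region can remove the protein while RNA remains, so the RNA level does not give the size of the protein loss.

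The genes lie at separate places in the genome, given here in GRCh37. NOTCH1 (chr9:139388885-139440500) and NRARP (chr9:140194083-140196723), both on the minus strand, share the end of the long arm of chromosome 9. On chromosome 3, HES1 (chr3:193853937-193856521, plus strand) and SOX2 (chr3:181429713-181432224, plus strand) are on the same arm. NOTCH2 is at chr1:120454176-120643366, NOTCH3 at chr19:15269849-15311806, JAG1 at chr20:10618332-10654647, JAG2 at chr14:105607319-105635161, and DLL1 at chr6:170591294-170615653, all on the minus strand. LFNG is at chr7:2552163-2568811 on the plus strand.

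Promoter sequences from RefSeq, as the 250 bases before a gene's start, were found for 8 of the 10 genes, and for neither DLL1 nor HEY1. They are shown for HES1, the target that was called in none of the KYSE140 comparisons, for NRARP, the target that rose on SOX2 knockout, and for LFNG, which fell in all 3 KYSE140 comparisons. The table's build was GRCh38.p14, and each window matched 1 place in GRCh37, given before the sequence. No exon or UTR overlapped these windows. Capitals mark matches to the RBPJ core TGGGAA, its longer form GTGGGAA, or the SOX core ACAATG, all searched on both strands.
HES1, chr3:193853687-193853936, plus strand: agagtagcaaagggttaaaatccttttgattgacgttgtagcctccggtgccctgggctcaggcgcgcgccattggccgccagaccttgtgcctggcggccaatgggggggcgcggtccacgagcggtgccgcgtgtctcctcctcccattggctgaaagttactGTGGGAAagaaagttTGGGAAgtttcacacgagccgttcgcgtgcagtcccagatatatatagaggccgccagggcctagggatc
NRARP, chr9:140196724-140196973, minus strand: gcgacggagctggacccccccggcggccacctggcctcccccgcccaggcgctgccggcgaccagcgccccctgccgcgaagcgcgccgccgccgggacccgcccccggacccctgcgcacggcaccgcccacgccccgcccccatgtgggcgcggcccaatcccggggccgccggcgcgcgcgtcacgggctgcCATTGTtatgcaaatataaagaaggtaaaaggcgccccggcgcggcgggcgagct
LFNG, first start, chr7:2551913-2552162, plus strand: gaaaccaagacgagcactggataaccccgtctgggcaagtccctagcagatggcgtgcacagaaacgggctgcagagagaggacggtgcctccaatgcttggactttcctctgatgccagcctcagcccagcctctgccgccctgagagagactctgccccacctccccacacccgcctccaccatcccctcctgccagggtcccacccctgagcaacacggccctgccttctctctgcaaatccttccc
LFNG, second start, chr7:2557247-2557496, plus strand, inside the gene: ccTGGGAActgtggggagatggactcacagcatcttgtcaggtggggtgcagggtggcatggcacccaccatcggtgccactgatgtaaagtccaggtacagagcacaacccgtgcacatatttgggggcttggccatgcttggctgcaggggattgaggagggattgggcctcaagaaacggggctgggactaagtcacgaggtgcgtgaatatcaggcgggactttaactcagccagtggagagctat
HES1 held TGGGAA at 84 to 79 and at 70 to 65 bases before the start, and the first of these was also the GTGGGAA match. Of all 35116 RefSeq promoters of this length, 20.8% held TGGGAA and 5.4% held GTGGGAA on either strand. NRARP held no RBPJ core in this window and 1 reverse-strand match to the SOX core at 55 to 50 bases before the start, printed in capitals as CATTGT, a match found in 9.3% of promoters. The window before the first LFNG start held none of these letters, and that before the second start held TGGGAA at 248 to 243 bases before it. ACAAAG, a variant of the SOX core, was in none of the windows of HES1, NRARP or LFNG and in 13.7% of all promoters. The windows of NOTCH1, NOTCH2, NOTCH3, JAG1 and JAG2, not printed here, held no match to any of these RBPJ or SOX letters. A match describes letters only, and binding was not measured here.

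In the KYSE140 controls JAG2 was the most abundant of the 10 transcripts in the CRISPRi and DMSO groups, and NOTCH3 was the leading receptor in all 3 control groups. With the CRISPRi control guides the order by mean TPM (n = 2) was JAG2 (153.0), LFNG (70.1), JAG1 (63.4), NOTCH3 (62.4), HES1 (54.3), NOTCH1 (23.9), HEY1 (22.5), NRARP (18.8), NOTCH2 (15.2) and DLL1 (10.2). In that order LFNG and JAG1, JAG1 and NOTCH3, and NOTCH1 and HEY1 had overlapping libraries, and the other neighbours did not. The control groups came from separate experiments and did not start at the same levels. JAG1 was 57.66 and 69.24 TPM with the CRISPRi control guides, 121.75 and 132.76 TPM with the knockout control guides, and 41.36 and 39.74 TPM with DMSO. Differences between the control groups were not tested, and each comparison below used its own controls.

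**Figure D1:**
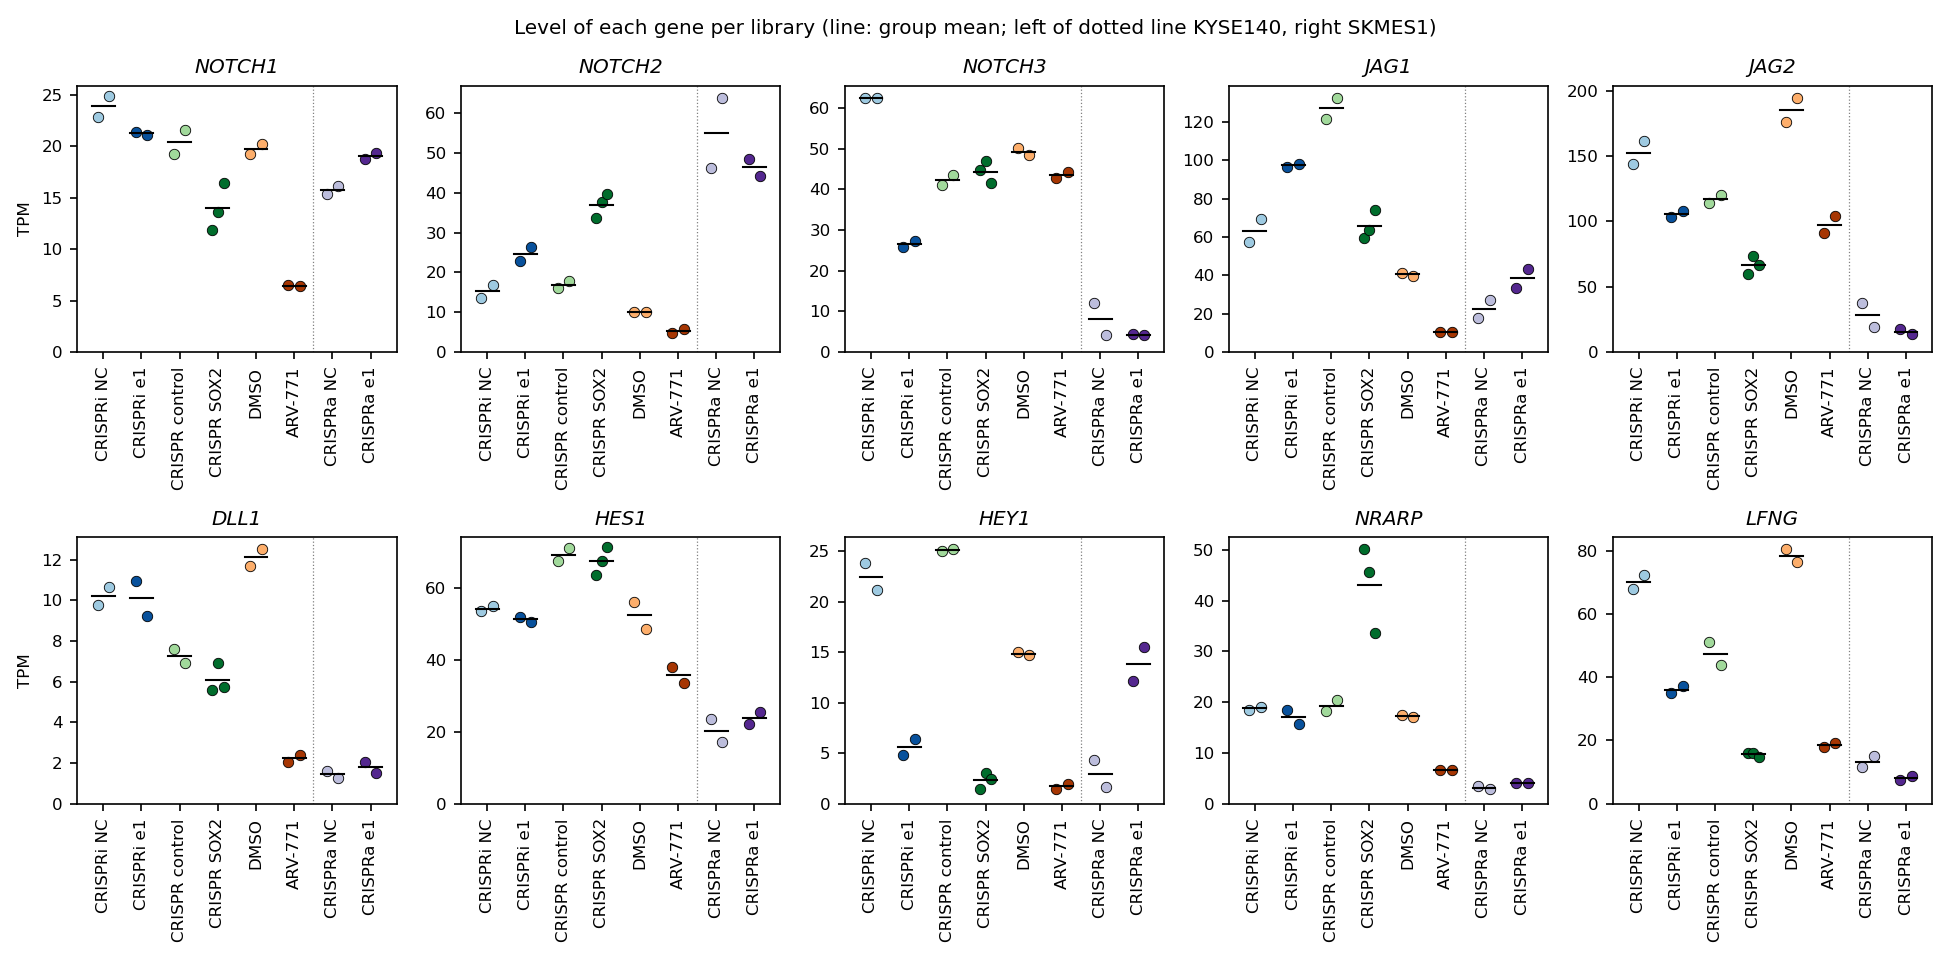
TPM of each gene in each library, by group, with 1 point per library and a line at the group mean; the y axes start at 0 and differ between genes, and the dotted line separates KYSE140 from SKMES1. HEY1 is lower in every e1 repression, SOX2 knockout and ARV-771 library than in its controls, LFNG likewise, and NOTCH2 is highest in SKMES1.

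Repression of e1 moved Notch genes in both directions. NOTCH2 and JAG1 rose, and NOTCH3, LFNG and HEY1 fell, so that 5 of the 10 genes were called (more than 1.5-fold changed, with an adjusted p under 0.05 in edgeR's quasi-likelihood test). Of all 13792 genes tested, 20% were called, 9.3% as higher and 10.7% as lower. The median size of the log2 fold change was 0.60 over the 10 genes and 0.28 over all genes tested. In bulk RNA, fewer cells with a transcript and less of it per cell cannot be told apart.

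Among the receptors, NOTCH3 measured 62.47 and 62.4 TPM with control guides and 25.81 and 27.39 TPM with e1 guides. Both e1 libraries were far below both controls, and the log2 fold change was -1.22 (SE 0.060, adjusted p = 1.81e-10), a 2.33-fold fall. NOTCH2 went the other way, from 13.59 and 16.87 TPM to 22.97 and 26.28 TPM. Its libraries did not overlap either, and its log2 fold change was 0.84 (SE 0.061, adjusted p = 2.09e-08), a 1.79-fold rise. NOTCH1 measured 22.9 and 24.94 TPM with control guides and 21.39 and 21.12 TPM with e1 guides, a small difference that did not pass the test (log2 fold change -0.10, SE 0.059, adjusted p = 0.178).

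NOTCH2 values carry a further limit. Its expected count was not whole in any of the 17 libraries, which marks reads shared with other genes that the tables do not name. NOTCH2NL, a near-identical partial copy of NOTCH2, measured 10.83 and 11.36 TPM with control guides and 21.98 and 20.31 TPM with e1 guides. Whether and how reads were divided between NOTCH2 and NOTCH2NL cannot be settled from these tables. When the counts of both were summed, an alternative chosen after the data were seen, the log2 fold change was 0.85, and NOTCH2 was on the same side of the test in every comparison.

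Among the ligands, JAG1 rose from 57.66 and 69.24 TPM to 96.65 and 98.34 TPM. The e1 libraries lay above both controls, with a log2 fold change of 0.64 (SE 0.065, adjusted p = 9.56e-07) or 1.56-fold. That fold is close to the limit of 1.5, and without control guide 1 the log2 fold change was 0.52 and the gene was not called. JAG2 measured 143.66 and 161.52 TPM with control guides and 103.1 and 107.7 TPM with e1 guides. Its groups did not overlap and its adjusted p was 3.17e-07, but the log2 fold change of -0.57 (SE 0.053), 1.48-fold, was just short of the limit. It was called by library size (-0.61), without control guide 1 (-0.61) and without e1 guide 2 (-0.60). DLL1 overlapped between the groups, with 9.78 and 10.66 TPM against 10.95 and 9.22 TPM.

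LFNG fell from 67.96 and 72.32 TPM to 34.87 and 37.18 TPM. All e1 libraries were below all controls, with a log2 fold change of -0.93 (SE 0.074, adjusted p = 6.41e-08).

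The targets did not move together. HEY1 measured 23.8 and 21.16 TPM with control guides and 4.8 and 6.41 TPM with e1 guides. It fell by 2.09 on the log2 scale (SE 0.155, adjusted p = 2.58e-08), or 4.25-fold, the largest change of the 10 genes in this comparison. HES1 stood at 53.63 and 54.97 TPM against 52.05 and 50.49 TPM, a log2 fold change of -0.07 (SE 0.080, adjusted p = 0.504). NRARP measured 18.42 and 19.14 TPM against 18.4 and 15.76 TPM, with a log2 fold change of -0.12 (SE 0.107, adjusted p = 0.379).

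**Figure D2:**
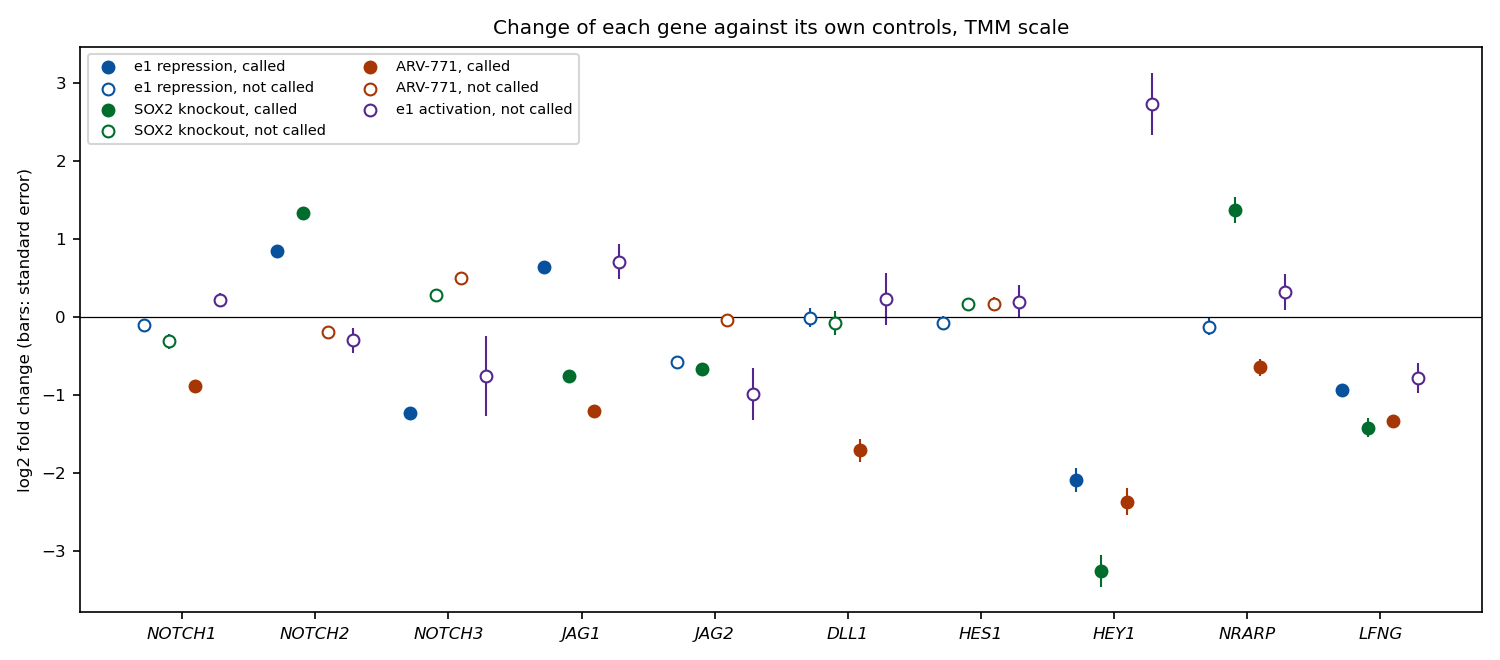
Log2 fold change of each gene against its own controls, from edgeR with TMM scaling, with bars of 1 standard error; filled points were called and open points were not. HEY1 and LFNG lie below 0 and are called in e1 repression, SOX2 knockout and ARV-771, and the open HEY1 point of e1 activation stands at 2.73.

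Knockout of SOX2 called 6 of the 10 genes. NOTCH2 and NRARP rose, and JAG1, JAG2, LFNG and HEY1 fell. The share called over all 13978 genes tested was 29.7%, 16.3% as higher and 13.5% as lower. The median size of the log2 fold change was 0.71 over the 10 genes and 0.38 over all genes tested. The count stayed at 6 without each library in turn, guide 4 included. Over all genes the split depended on scaling, with 2275 higher and 1882 lower by TMM and 1703 higher and 2999 lower by library size, while the 6 genes kept their directions by either.

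NOTCH2 was 16.07 and 17.76 TPM with the control guides and 33.64, 37.6 and 39.74 TPM with SOX2 guides 2, 3 and 4. Every SOX2 library was above the controls, and the log2 fold change was 1.33 (SE 0.080, adjusted p = 6.26e-08). NOTCH2NL moved beside it, from 14.78 and 17.23 TPM to 56.69, 53.81 and 46.86 TPM, and the summed counts of both gave a log2 fold change of 1.42. NOTCH1 measured 19.23 and 21.58 TPM in controls and 11.86, 13.62 and 16.42 TPM with SOX2 guides, lowest with guide 2. The groups did not overlap and the adjusted p was 0.0165, but the log2 fold change of -0.31 (SE 0.096) was under the fold limit. NOTCH3 overlapped between the groups in TPM (41.0 and 43.47 against 44.79, 46.85 and 41.47) and changed by 0.28 on the log2 scale (SE 0.085, adjusted p = 0.0157), again under the fold limit.

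JAG1 fell from 121.75 and 132.76 TPM to 59.71, 63.99 and 74.07 TPM. No SOX2 library reached the controls, and the log2 fold change was -0.76 (SE 0.076, adjusted p = 4.77e-06). The knockout libraries stood at the level of the CRISPRi controls of the same line (57.66 and 69.24 TPM), so the fall was measured from the highest of the 3 control levels. JAG2 fell from 114.21 and 120.08 TPM to 60.12, 73.28 and 66.32 TPM, without overlap, a log2 fold change of -0.66 (SE 0.071, adjusted p = 8.75e-06). DLL1 measured 7.58 and 6.89 TPM in controls and 5.58, 6.9 and 5.72 TPM with SOX2 guides, with guide 3 inside the control range (log2 fold change -0.07, SE 0.156, adjusted p = 0.726).

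LFNG fell from 50.98 and 43.73 TPM to 16.11, 16.14 and 14.73 TPM. The knockout values were close to each other and far below the controls, a log2 fold change of -1.42 (SE 0.121, adjusted p = 1.33e-06). HEY1 went from 25.03 and 25.18 TPM to 1.46, 3.05 and 2.41 TPM, or from 329 and 260 expected counts to 30, 33 and 35. This 9.52-fold fall (log2 fold change -3.25, SE 0.201, adjusted p = 8.16e-08) was the largest of the 10 genes in any KYSE140 comparison. NRARP rose from 18.25 and 20.42 TPM to 50.08, 45.64 and 33.69 TPM, lowest with guide 4. Its log2 fold change was 1.37 (SE 0.169, adjusted p = 2.82e-05), and 1.55 without guide 4. HES1 overlapped, with 67.61 and 71.08 TPM in controls and 63.68, 67.55 and 71.37 TPM with SOX2 guides. The log2 fold change of HES1 was 0.17 (SE 0.077, adjusted p = 0.0814) and its sign depended on scaling, at -0.03 by library size.

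The responses to e1 repression and to SOX2 knockout were set against each other in 1 fit of 9 libraries, as the difference of their log2 fold changes. The comparisons share no library. For 4 of the 10 genes the difference was called, beside 16.6% of the 14455 genes tested (8.21% higher and 8.37% lower with e1 repression). JAG1 rose with e1 repression and fell with SOX2 knockout, a difference of 1.42 (SE 0.109, adjusted p = 1.15e-06). Of the 12979 genes tested in all 3 KYSE140 comparisons, 64 (0.493%) were called in opposite directions by e1 repression and SOX2 knockout, and JAG1 was the only one of the 10 among them. NOTCH3 fell with e1 repression alone, a difference of -1.48 (SE 0.114, adjusted p = 1.15e-06). NRARP rose with the knockout and was near its controls with e1 repression, a difference of -1.47 (SE 0.243, adjusted p = 0.00046). HEY1 fell in both and further with the knockout, a difference of 1.19 (SE 0.286, adjusted p = 0.00647) that was not called without e1 guide 2 (0.96, adjusted p = 0.0595).

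The other genes differed less between the perturbations. NOTCH2 rose in both, with a difference of -0.47 (SE 0.098, adjusted p = 0.00246), and LFNG fell in both, with a difference of 0.51 (SE 0.153, adjusted p = 0.0218), each under the fold limit. The LFNG difference was called by library size (0.65), by limma on TPM (0.59 and 0.63) and without the Chr2.2 control (0.69). Higher calls in both comparisons were made for 5.04% of the 12979 genes, and NOTCH2 was 1 of them. For JAG2 the difference was 0.11 (SE 0.087, adjusted p = 0.38). The guides, the Cas9 constructs and the control levels differ between the experiments, and their part in these differences was not tested.

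**Figure D3:**
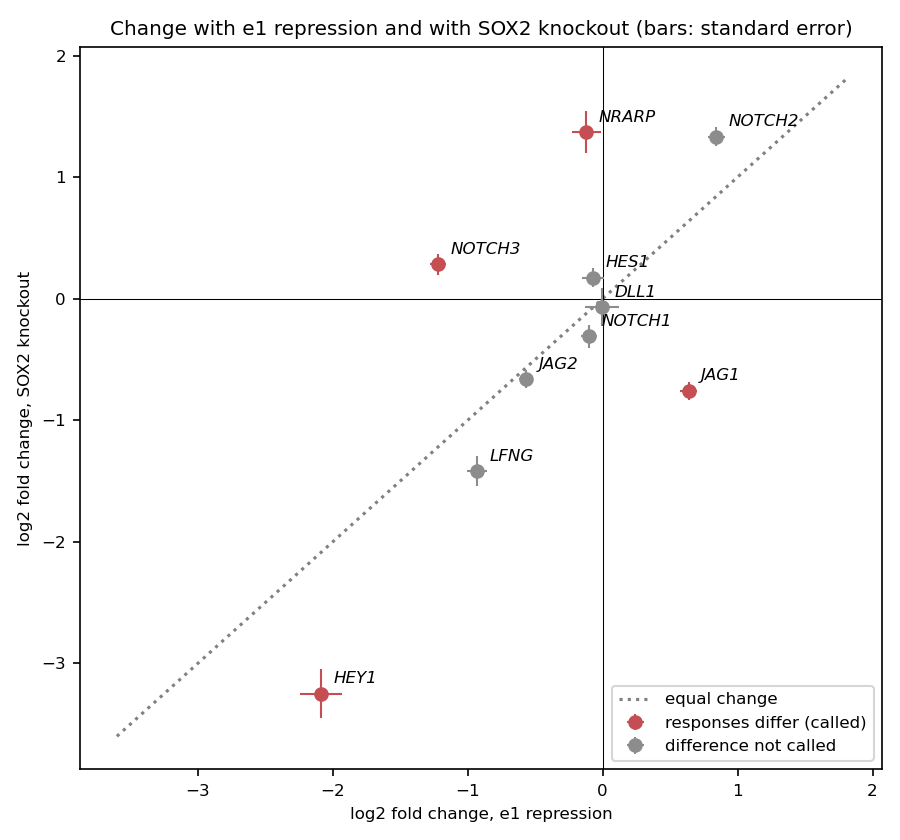
Log2 fold change with e1 repression (x axis) against that with SOX2 knockout (y axis) in KYSE140, 1 point per gene with bars of 1 standard error; red points mark genes whose responses differed by the called interaction, and the dotted line marks equal change. JAG1 lies at 0.64 and -0.76, NOTCH3 at -1.22 and 0.28, and HEY1 lies lowest on both axes.

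ARV-771 lowered 6 of the 10 genes within 6 h and raised none by the test. NOTCH1, JAG1, DLL1, LFNG, HEY1 and NRARP fell. The background was wide, since 52.9% of the 13500 genes tested were called, 21.2% as higher and 31.7% as lower. The median size of the log2 fold change was 0.76 over the 10 genes and 0.66 over all genes tested. Fewer transcripts per cell overall and a fall of single genes cannot be told apart in these libraries, which are scaled to a fixed total. Library size alone moved the median log2 fold change of 10855 well-counted genes from -0.03 to -0.46, and scaling to 37 mitochondrially encoded genes moved it to -1.07. Over all genes the split was 2857 higher and 4279 lower by TMM, 381 and 6076 by library size, and 69 and 9672 by mitochondrial scaling. Directions below are those of TMM scaling, that is, relative to most other genes, and the 6 called genes were lower by library size, RLE factors and mitochondrial scaling too.

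NOTCH1 fell from 19.29 and 20.18 TPM with DMSO to 6.49 and 6.46 TPM with ARV-771. The groups were far apart, with a log2 fold change of -0.88 (SE 0.067, adjusted p = 1.47e-11). NOTCH2 went from 10.18 and 10.06 TPM to 4.89 and 5.86 TPM, but on the TMM scale its log2 fold change was -0.20 (SE 0.075, adjusted p = 0.0228), under the fold limit. NOTCH2 was called lower by library size (-0.66), by mitochondrial scaling (-1.28) and by limma on TPM (-0.81 and -0.91), so its call depended on the scaling. NOTCH3 was 50.17 and 48.41 TPM with DMSO and 42.78 and 44.29 TPM with ARV-771. Its TPM values were slightly lower with the drug while its TMM-scaled log2 fold change was 0.50 (SE 0.049, adjusted p = 1.31e-09), so that its direction turned with the scaling (-0.58 on the mitochondrial scale) and it was not called.

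JAG1 fell from 41.36 and 39.74 TPM to 10.77 and 10.66 TPM, a log2 fold change of -1.20 (SE 0.064, adjusted p = 2.86e-14). DLL1 fell from 11.68 and 12.52 TPM to 2.07 and 2.39 TPM, a log2 fold change of -1.71 (SE 0.142, adjusted p = 7.83e-11). The libraries of either gene did not overlap, and replicates lay close together. JAG2 measured 176.16 and 194.52 TPM with DMSO and 90.86 and 103.92 TPM with ARV-771, a log2 fold change of -0.04 on the TMM scale (SE 0.046, adjusted p = 0.413). By library size it was -0.50 and with RLE factors 0.00, neither called, and JAG2 was called lower by mitochondrial scaling (-1.12) and by limma on TPM (-0.92 and -0.93), so for JAG2 the TPM fall and the TMM value differ by scaling and by the length that RSEM assigned to the gene.

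LFNG fell from 80.52 and 76.3 TPM to 17.8 and 19.14 TPM, a log2 fold change of -1.33 (SE 0.077, adjusted p = 9.38e-14). HEY1 fell from 14.98 and 14.75 TPM to 1.48 and 1.94 TPM, a log2 fold change of -2.36 (SE 0.173, adjusted p = 7.51e-12). NRARP fell from 17.38 and 17.11 TPM to 6.67 and 6.73 TPM, a log2 fold change of -0.64 (SE 0.110, adjusted p = 1.14e-05). The groups did not overlap in any of these. With all 17 libraries in one fit the NRARP value was -0.56, under the fold limit, and the call was lost. By the main test NRARP thus moved down with ARV-771 and up with SOX2 knockout, each from nearly the same control level. HES1 was 56.22 and 48.67 TPM with DMSO and 38.14 and 33.46 TPM with ARV-771. Its log2 fold change was 0.17 (SE 0.090, adjusted p = 0.0943) by TMM and -0.29 by library size.

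Side by side, 2 of the 10 genes were called lower in all 3 KYSE140 comparisons, HEY1 and LFNG. Of the 12979 genes tested in each, 196 (1.51%) had that pattern. HES1 was called in none of the 3, as were 30.9% of the 12979 genes. The remaining genes were called in 1 or 2 comparisons, apart from JAG1, which was called higher in e1 repression and lower in the others.

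Activation of e1 in SKMES1 gave no call among the 10 genes with edgeR's quasi-likelihood test, beside 0.188% of the 14859 genes tested (0.168% as higher and 0.0202% as lower). At an unadjusted p under 0.05 in that test there were 4 of the 10 genes, HEY1, LFNG, JAG1 and JAG2. Such p were common, since NOTCH1, just above that limit at 0.0523, ranked 2168 by p among the 14859 genes. The edgeR exact test and the Wald test of DESeq2 each called 1, HEY1, beside 3.52% and 2.69% of the 14859 genes, and limma on TPM called 0. The control libraries of this comparison differed from each other more than any other pair of replicates.

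HEY1 measured 4.35 and 1.61 TPM with control guides and 12.17 and 15.5 TPM with e1 guides, or 42 and 21 against 152 and 335 expected counts. Both e1 libraries were above both controls, and the log2 fold change was 2.73 (SE 0.401), 6.63-fold, with an adjusted p of 0.109. The adjusted p was 2.31e-07 in the edgeR exact test, 2.44e-07 in DESeq2, 0.00162 without NC guide 1 and 0.0118 without NC guide 2. HEY1 was not called without e1 guide 1 (adjusted p = 0.201) or without e1 guide 3 (adjusted p = 0.531). The length that RSEM weighted for HEY1 also differed, at 1582.15 and 1789.38 bases with control guides and 2293.86 and 2293.4 bases with e1 guides, so its TPM ratio of 4.64 was smaller than its count ratio. In KYSE140 that length was 2075.59 to 2296.0 bases.

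Of the other genes with an unadjusted p under 0.05, LFNG was 11.47 and 15.08 TPM with control guides and 7.34 and 8.6 TPM with e1 guides (log2 fold change -0.78, SE 0.190, adjusted p = 0.19). JAG1 was 18.0 and 27.43 TPM against 33.41 and 43.5 TPM (0.71, SE 0.225, adjusted p = 0.274). JAG2 was 37.41 and 19.47 TPM against 17.63 and 13.65 TPM (-0.98, SE 0.333, adjusted p = 0.299). In none of these genes did the groups overlap, but the spread within the control pair was large, most of all for JAG2. The groups of NOTCH1 and NRARP, whose adjusted p in the same test was higher, did not overlap either. With so few libraries in each group, separation alone is not taken as evidence of a change for any gene in this comparison. How many of all genes had groups apart is not given here. LFNG, JAG1 and JAG2 were each called without the filter on low counts and with all 17 libraries in one fit. These settings called 1116 and 784 of all genes, against 28 in the main test. Without NC guide 2 the log2 fold changes of JAG1 and JAG2 were 1.03 and -1.41. NOTCH3 was 12.2 TPM with NC guide 1 and 4.22 TPM with NC guide 2, against 4.43 and 4.24 TPM with e1 guides, and its log2 fold change of -0.75 (SE 0.511) became 0.30 without NC guide 1. Without NC guide 2 it was -1.36 and called (adjusted p = 0.0079). NOTCH2 (46.13 and 63.85 against 48.41 and 44.28 TPM), DLL1 (1.63 and 1.26 against 2.03 and 1.53 TPM) and HES1 (23.58 and 17.1 against 22.08 and 25.45 TPM) overlapped. NOTCH1 was 15.37 and 16.18 TPM against 18.74 and 19.38 TPM (adjusted p = 0.359), and NRARP 3.42 and 2.91 TPM against 4.02 and 4.16 TPM (adjusted p = 0.587).

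Between the lines, the SKMES1 control libraries were set against the mean of the 3 KYSE140 control groups. The line, its tissue and its CRISPR system cannot be told apart in this comparison. NOTCH2 was called higher in SKMES1 and 8 genes lower, leaving NOTCH1, and the share called over all 15532 genes tested was 57.2% (31.4% higher and 25.8% lower). NOTCH2 was 46.13 and 63.85 TPM in SKMES1 and between 10.06 and 17.76 TPM in the KYSE140 controls, a log2 difference of 1.92 (SE 0.089, adjusted p = 3.2e-08). NOTCH3 was 12.2 and 4.22 TPM against 41.0 to 62.47 TPM, a log2 difference of -3.15 (SE 0.337, adjusted p = 1.33e-05). The leading receptor transcript was thus NOTCH2 in SKMES1 and NOTCH3 in KYSE140. NOTCH1 was within the fold limit at -0.52 (SE 0.060, adjusted p = 2.21e-05), and against the CRISPRi controls alone it was called lower (-0.66, adjusted p = 2.08e-05).

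All 3 ligands were lower in SKMES1, with log2 differences of -1.73 (SE 0.140) for JAG1, -2.45 (SE 0.225) for JAG2 and -2.87 (SE 0.160) for DLL1. LFNG was lower by -2.39 (SE 0.131). The targets were lower as well, HES1 by -1.66 (SE 0.131), NRARP by -2.68 (SE 0.121) and HEY1 by -3.41 (SE 0.241). The adjusted p of these 7 genes was at most 4.21e-06, and none overlapped between the lines. Against each KYSE140 control group alone, the direction of all 10 genes was the same.

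The make-up of receptor RNA changed with these differences. NOTCH3 supplied 63.1% and 59.9% of the summed TPM of NOTCH1, NOTCH2 and NOTCH3 with the CRISPRi control guides and 36.8% and 36.6% with e1 guides, while NOTCH2 went from 13.7% and 16.2% to 32.7% and 35.1%. With SOX2 knockout NOTCH2 supplied 37.3% to 40.7%, against 21.1% and 21.4% in controls, and NOTCH1 supplied 13.1% to 16.8%, against 25.2% and 26.1%. With ARV-771 the share of NOTCH3 was 79.0% and 78.2%, against 63.0% and 61.6% with DMSO. In the SKMES1 controls NOTCH2 supplied 62.6% and 75.8%.

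Of the summed TPM of JAG1, JAG2 and DLL1, most was JAG2 and JAG1, and DLL1 never exceeded 5.2% in any library. Other ligand genes were left out of this sum, among them DLK2, at 66.84 and 72.98 TPM with DMSO. JAG1 supplied 27.3% and 28.7% with the CRISPRi control guides and 45.9% and 45.7% with e1 guides. In the knockout experiment its share averaged 50.6% in controls and lay between 44.4% and 50.7% with SOX2 guides, and the groups overlapped. JAG2 supplied 76.9% and 78.8% with DMSO and 87.6% and 88.8% with ARV-771. In SKMES1 the share of JAG1 was 31.6% and 57.0% with control guides and 63.0% and 74.1% with e1 guides. These shares are descriptions, since 2 or 3 libraries a group are too few for an exact test of a single value to pass.

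**Figure D4:**
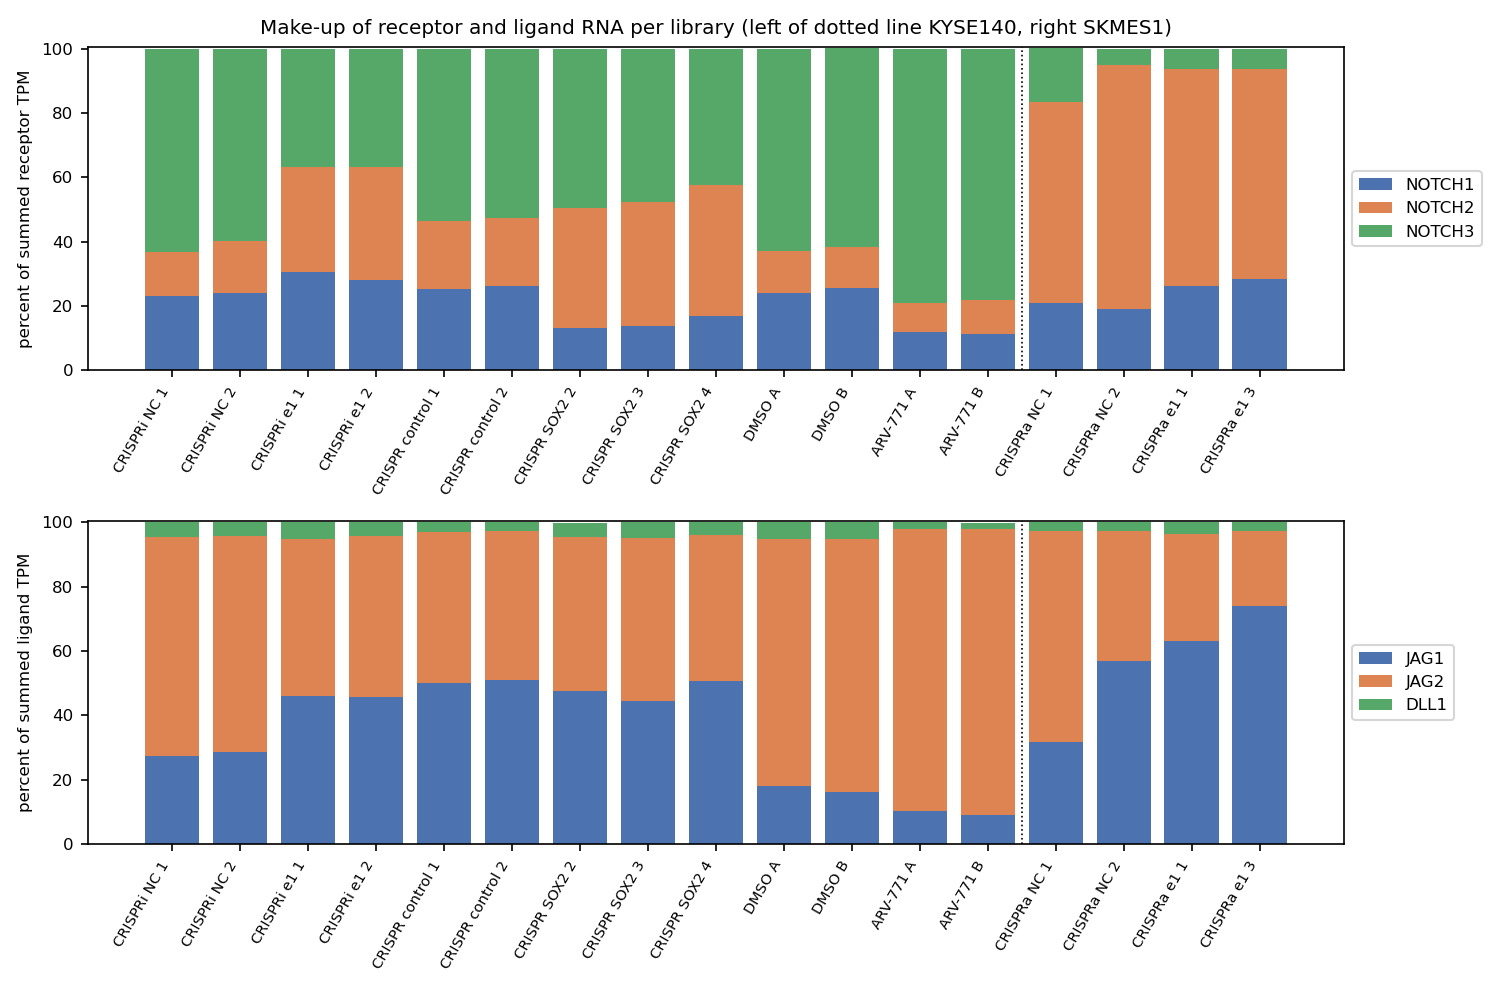
Share of each receptor in the summed TPM of NOTCH1, NOTCH2 and NOTCH3 (top) and of each ligand in that of JAG1, JAG2 and DLL1 (bottom), in percent, with 1 bar per library and the dotted line between KYSE140 and SKMES1. NOTCH3 fills 59.9% or more of the receptor bar with CRISPRi control guides and at most 36.8% with e1 guides, and NOTCH2 fills most of the bar in SKMES1.

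Another 48 genes of the pathway were examined beside the 10. With e1 repression 42 were tested and 9 were called, 3 higher and 6 lower. Among those with the smallest p, PSEN2, a catalytic subunit of gamma-secretase, rose (9.03 and 10.89 to 15.53 and 16.14 TPM, log2 fold change 0.76, SE 0.135, adjusted p = 0.00028). NEURL1, a ubiquitin ligase related to those that act on ligands, and MFNG, Manic fringe, also rose, from low levels (log2 fold changes 1.18 and 1.34, SE 0.329 and 0.429). NEURL1B, of the same ligase family, fell from 9.96 and 9.93 TPM to 3.6 and 3.23 TPM (-1.47, SE 0.111, adjusted p = 3.17e-08). MAML2, a Mastermind coactivator, fell from 13.33 and 14.5 TPM to 6.74 and 6.64 TPM (-1.04, SE 0.085, adjusted p = 7.52e-08), and HES6, of the HES family, from 25.93 and 24.39 TPM to 13.2 and 14.54 TPM (-1.02, SE 0.139, adjusted p = 2.14e-05). Of the 6 genes tested in the HES and HEY family list, HES6 included, 3 fell and none rose. The 9 calls are 21.4% of the 42 genes, beside 20% of all genes.

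With SOX2 knockout 13 of 42 tested pathway genes were called, 7 higher and 6 lower. NEURL1B (log2 fold change -1.61, SE 0.155), HES6 (-1.66, SE 0.189) and MAML2 (-0.86, SE 0.122) fell again. The largest rise was that of HES2, a HES family gene, from 23.49 and 13.2 TPM to 65.99, 70.65 and 53.55 TPM (2.45, SE 0.157, adjusted p = 1.13e-07). DTX2 (0.91, SE 0.102) and ITCH (0.70, SE 0.092), ubiquitin ligases that act on Notch, rose as well. The 13 calls are 31% of the 42 genes, beside 29.7% of all genes. The counts of HES2 and DTX2 were not whole in any library, which marks reads shared with other genes. Between e1 repression and knockout, 4 of the 42 differed by the interaction (9.52%, beside 16.6% of all genes). Among them HES6 was higher (0.66, SE 0.229), and HES2 (-2.16, SE 0.222) and MAML3 (-2.22, SE 0.455) were lower, with e1 repression. MAML3 had few reads, at most 2.21 TPM in these libraries.

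With ARV-771 18 of 40 tested pathway genes were called (45%, beside 52.9% of all genes), 5 higher and 13 lower. By role they split. In the nuclear complex 7 of 9 genes fell and none rose, beside 31.7% of all genes called lower. Among the protease genes 4 of 9 rose and none fell, beside 21.2% of all genes called higher. SPEN, a corepressor of RBPJ, fell from 26.64 and 30.62 TPM to 6.85 and 5.77 TPM (log2 fold change -1.79, SE 0.071, adjusted p = 1.45e-16). The acetyltransferase EP300 (-1.56, SE 0.070) and MAML2 (-2.08, SE 0.111) fell too. The gamma-secretase subunits APH1A (0.76, SE 0.050), NCSTN (0.78, SE 0.067) and PSENEN (0.90, SE 0.081) were higher on the TMM scale, though PSENEN counts were not whole in any library. APH1A was 185.9 and 173.5 TPM with DMSO and 187.23 and 190.0 TPM with the drug, and NCSTN was 37.68 and 39.83 TPM against 36.04 and 37.74 TPM, so their rise is relative to other genes. With the mitochondrial scaling no pathway gene rose and 32 fell.

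**Figure D5:**
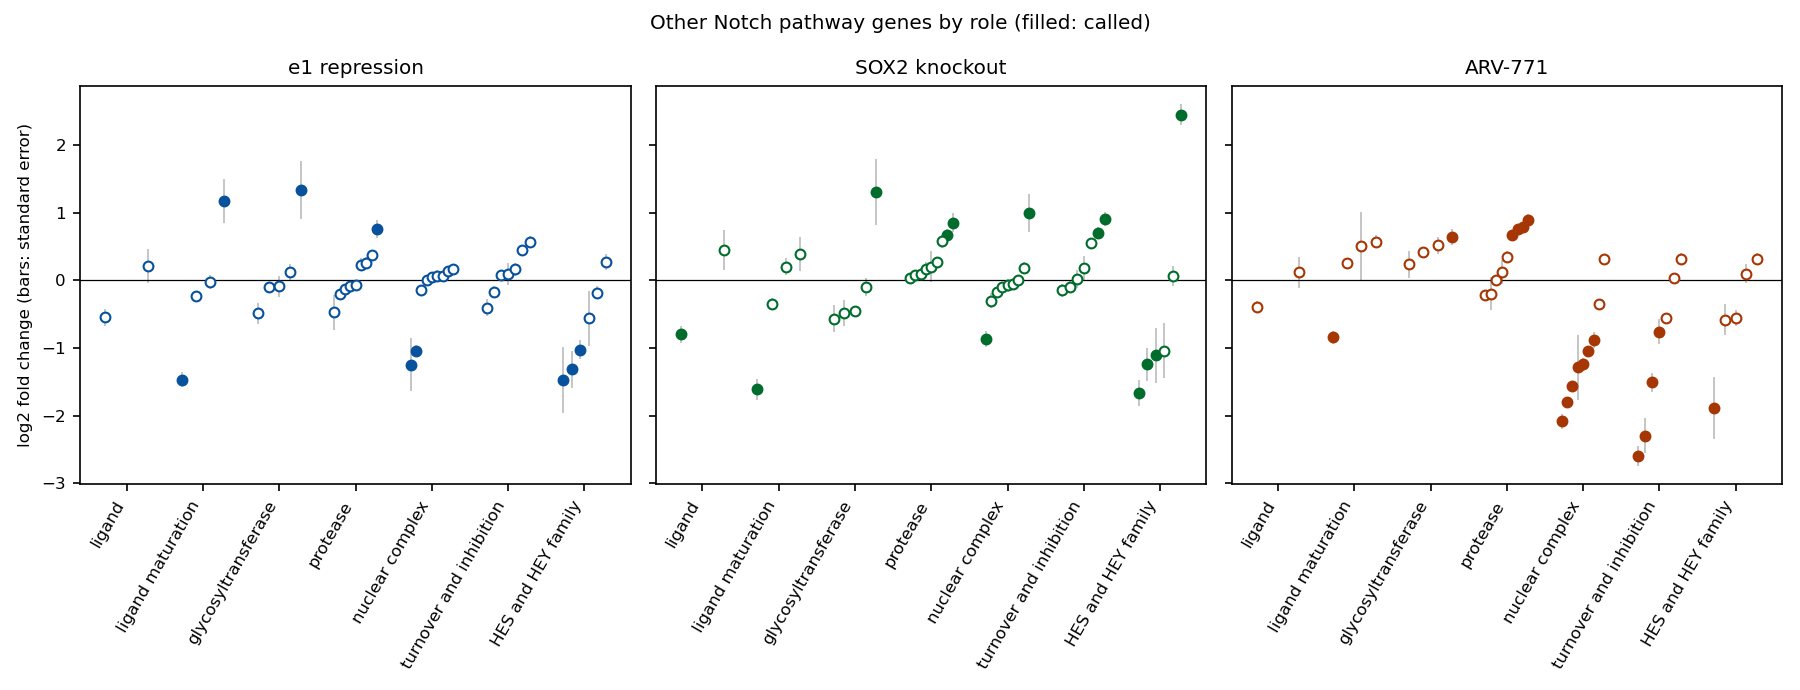
Log2 fold changes (y axis, TMM scale, bars of 1 standard error) of the other pathway genes tested, by role (x axis), in e1 repression, SOX2 knockout and ARV-771; filled points were called. With ARV-771 the nuclear complex lies mostly below 0, with 7 of 9 called lower, and 4 of 9 protease genes are called higher.

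In e1 activation none of 43 tested pathway genes was called by edgeR's quasi-likelihood test, beside 0.188% of all genes. In that test 3 of the 43 had an unadjusted p under 0.05. PSEN2, just above that limit at 0.0521, ranked 2164 by p among the 14859 genes. The edgeR exact test called 2 and DESeq2 called 1, beside 3.52% and 2.69% of all genes. Between the lines 25 of 44 were called (56.8%, beside 57.2% of all genes), 14 higher and 11 lower in SKMES1. PSEN2 (log2 difference 1.77, SE 0.102) and RBPJ (0.97, SE 0.073) were higher, and MAML2 (-3.13, SE 0.105), the noncanonical ligand DLK2 (-4.24, SE 0.168) and DTX3 (-1.51, SE 0.086) were lower. DTX4 had 172 and 94 counts in the SKMES1 controls and at most 3 counts in any KYSE140 library.

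The genes whose changes were most like those of the 5 genes called in at least 2 of the 4 perturbations were found by the root mean square difference of log2 fold changes over these 4 comparisons, among 12369 genes. For NOTCH2 they were NEAT1 (0.143) and NMI (0.149), for JAG1 CTC-365E16.1 (0.143) and AC108142.1 (0.226), for NRARP GOLGA7B (0.106) and RAB5B (0.124), and for LFNG RCOR2 (0.157) and LRRC37A4P (0.195). HEY1 had no neighbour as near, the closest being CX3CL1 at 0.618 and TMEM170B at 0.681. CX3CL1 had log2 fold changes of -1.25 with e1 repression, -2.77 with SOX2 knockout, -2.53 with ARV-771 and 1.97 with e1 activation, against -2.09, -3.25, -2.36 and 2.73 for HEY1. The measure is over 4 comparisons only and is given as a description.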

How the data were processed

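Poly-A RNA was sequenced from directional libraries. The authors used Bowtie2 on hg19 and RSEM on GENCODE genes; versions and the RSEM strand setting are not given in the sources used here. The deposited expected counts were not normalized, and in each library 7.41% to 10.02% of genes had counts that were not whole. The deposited TPM were scaled within each library by the authors' RSEM run, with a length per gene and library that was also deposited. The bars in the figures are standard errors of the fits, defined below, and not counting intervals.

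Rounded expected counts entered edgeR 4.0.16 (R 4.3.3), quasi-likelihood test, with TMM, filterByExpr (minimum count 10, minimum total 15) and Benjamini-Hochberg adjustment over all genes. Only the libraries compared entered a fit, and all 10 genes passed the filter in all 6 comparisons. A call needed more than a 1.5-fold change and an adjusted p under 0.05, as in the study's methods. SE was |log2 fold change| / sqrt(F). Replicates were different guides to one target, different control guides, or libraries A and B, so p-values measure the spread between these libraries. The knockout control guides aimed at different sites, AAVS1 and Chr2.2, so the spread of these controls includes any difference between the sites. Samples were grouped by their labels.

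The 10 genes and the lists were chosen with earlier results of these data known. The text names these genes, SOX2, the 3 risen and 3 fallen other pathway genes with the smallest p per comparison, and the 2 genes most like each gene called in at least 2 perturbations. Some items are not reported here. PECAM1, a marker, had no matching symbol. Alternatives were the edgeR exact test, DESeq2 1.42.0, RLE factors, library size only, mitochondrial scaling, other filters and fold limits, limma 3.58.1 on log2(TPM + 1) or log2(TPM + 0.1) at a mean TPM of at least 1, all 17 libraries in one fit, a replicate block, single KYSE140 references and leaving out each library. Tests were checked on simulated counts. Gene positions came from a GENCODE release lifted to GRCh37, and promoters from RefSeq.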

Additional observations from a re-analysis of the deposited data

Results flagged for a closer look

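For 4 of the 10 genes the log2 fold change differed between e1 repression and SOX2 knockout by the interaction test of edgeR, and each difference is e1 repression minus knockout. NOTCH3 differed by -1.48 and JAG1 by 1.42, with JAG1 changing in opposite directions. NRARP differed by -1.47 and HEY1 by 1.19. No group held the 4 libraries needed to look for a single library far from the others.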

How the results depend on the processing

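Over the 10 genes, results kept their direction and their side of the threshold in 115 of 121 values under other settings for e1 repression, 104 of 111 for SOX2 knockout, 109 of 131 for ARV-771, 99 of 110 for e1 activation, 129 of 131 between the lines and all but 5 for the interaction; the cause of a change was not tested unless stated.

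With e1 repression DLL1 was 0.001 in DESeq2. HES1 in SOX2 knockout was -0.028 by library size and -0.039 by limma on TPM with either pseudocount. In ARV-771, HES1 was -0.292 by library size, -0.914 by mitochondrial scaling and -0.538 and -0.549 by limma; NOTCH3 was -0.577 by mitochondrial scaling and -0.175 and -0.179 by limma; JAG2 was 0.003 in DESeq2 and with RLE factors and 0.035 with all 17 libraries.

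A fold limit of 2 left 2 of the 10 genes called in e1 repression, and 6, 10, 13 and 2 other pathway genes in SOX2 knockout, ARV-771, between the lines and in the interaction. With no fold limit 19, 20, 32 and 8 other pathway genes were called in e1 repression, SOX2 knockout, ARV-771 and the interaction. For e1 repression 5 other pathway genes were called in DESeq2 and 5 with a mean of at least 50 counts, which tests fewer genes. Mitochondrial scaling called 32 in ARV-771, and limma called 2 in the interaction with either pseudocount. Over all genes, e1 repression gave 1526 calls with a fold limit of 2 and 6103 with none, of 13792 tested. SOX2 knockout gave 2339 and 7123 of 13978, the interaction 1021 and 4010 of 14455, and ARV-771 3809 and 10154 of 13500. Between the lines 6340 of 15532 were called with a fold limit of 2. For e1 repression 2307 of all genes were called in DESeq2 and 2097 with a mean of at least 50 counts. Mitochondrial scaling called 9741 of all genes in ARV-771, and limma 2018 and 1950 in the interaction.

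In e1 activation, of the 10 genes 1 was called by the edgeR exact test, 1 by DESeq2, 5 without the filter and 4 with all 17 libraries; of the other pathway genes 2, 1, 4 and 3. Over all genes these settings called 523, 400, 1116 and 784, against 28, and limma called 9 or 8. Leaving out each library in turn gave 0 to 4 of the 10 genes (1 without NC guide 1, 4 without NC guide 2), 0 to 2 other pathway genes and 1 to 764 of all genes (764 without NC guide 1, 262 without NC guide 2, 1 without e1 guide 3).

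Leaving out each library in turn turned the sign of 6 values, none called. DLL1 ranged from -0.133 to 0.121 in e1 repression, -0.158 to 0.016 in SOX2 knockout and -0.042 to 0.211 in the interaction, NOTCH3 from -1.361 to 0.304 and HES1 from -0.033 to 0.477 in e1 activation. A lone library left in a group was assumed to vary like the others.

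Guide numbers 1 and 2 in e1 repression and letters A and B in ARV-771 gave a replicate block. Deviations of same-numbered or same-lettered libraries correlated at 0.015 over 11145 genes and -0.043 over 10852 genes. With 2 libraries in each group, these values cannot settle whether such libraries shared a culture or handling. With the replicate block 5 and 6 of the 10 genes, 9 and 18 other pathway genes and 2807 and 7090 of all genes were called. No paired analysis was possible because the groups compared share fewer than 2 numbers in SOX2 knockout and e1 activation. Depth limits DLL1, HEY1 and NRARP in SKMES1 controls, at 21 to 58 counts.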
